A study of Mus musculus with 18 samples.

Results

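The genes described here are 9 fibroblast and collagen genes of the mouse heart: the fibrillar collagen genes Col1a1, Col1a2 and Col3a1, the small leucine-rich proteoglycan genes Dcn, Lum and Aspn, the matricellular gene Postn, and the fibroblast genes Pdgfra and Tcf21. They were chosen by symbol, with earlier results of these data known. All 18 probe sets that the array annotation maps to exactly 1 of these symbols were used, out of 45037 probe sets and 18193 genes measured. Of the 18 probe sets, 14 were on average no dimmer than the middle probe set of the array, 4.85. Each gene had at least 1 such probe set.

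Hearts came from control mice and from mutants labelled deficient in Kir6.1. This protein, the product of Kcnj8, forms the pore of ATP-sensitive potassium channels in the smooth muscle of vessels. The mice had received 0.5 µg of lipopolysaccharide (LPS, a bacterial endotoxin) in PBS, or PBS alone. For each genotype there were 3 arrays 3 h after PBS, 3 arrays 30 min after LPS and 3 arrays 3 h after LPS, 18 in all, each from total RNA of a heart. The labels give no strain, age, sex, allele or route of injection, and no PBS group for 30 min was analysed here. The design speaks of 3 mice per genotype without tying each array to an animal, so p-values measure only array-to-array spread, some of which may be technical. Values are the deposited log2 signals on the Affymetrix Mouse430_2 array. A difference of 1 is a doubling, and levels are compared between samples, never between probe sets. Adjusted p-values are from limma, with Benjamini-Hochberg adjustment over all 45037 probe sets and a threshold of 0.05.

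Cardiac fibroblasts make most of the fibrous matrix of the heart. Col1a1 and Col1a2 encode the chains that join into type I collagen, the stiff main fibre, and Col3a1 encodes type III collagen, the finer fibre that runs with it. Decorin (Dcn), lumican (Lum) and asporin (Aspn) are proteins that sit on collagen fibrils and influence how the fibrils assemble. Postn encodes periostin, a matrix protein known for its rise in activated fibroblasts after injury. Pdgfra is a growth factor receptor that marks resident cardiac fibroblasts, and Tcf21 is a transcription factor needed for their formation from the epicardium. In a whole-heart extract, fewer fibroblasts and less RNA per fibroblast cannot be told apart.

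The mutant LPS 3 h group was not uniform. Its replicates 1 and 3 were the only arrays hybridized on a second day, and an RNA quality measure, the signal at the 3′ end less that at the 5′ end for Gapdh and Actb, which is larger in degraded RNA, was 1.09 to 1.37 against 0.13 to 0.44 on the other 16 arrays. Replicate 2 was hybridized on the first day with all PBS and control LPS 3 h arrays, but it was the only array of its lot. Signals of the airway gene Scgb1a1 were 9.90 in replicate 2 and 8.80 in replicate 3, while the remaining 16 arrays ranged from 3.56 to 3.94. Replicate 2 also carried the highest signal of the fat cell gene Adipoq (9.92, against 5.27 to 8.26), while the lung gene Sftpc was at 5.18 there, within 4.53 to 5.39 on the others. All LPS 30 min arrays shared the third day, and their 18S control signal was 8.62 to 9.21 against 10.4 to 12.4 on the rest. Day and LPS 30 min therefore cannot be told apart. Kcnj8, the gene affected in the mutants, read 8.35 to 8.90 on every control array and 4.35 to 5.36 on every mutant array. Whether the probes of Kcnj8 cover the altered sequence is not known here.

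Upstream sequences were available for 6 of the 9 genes, in RefSeq on GRCm38.p6. Those of 3 are shown because Col1a2 and Col3a1 were the most alike pair of the 9 genes across the arrays and Aspn showed the largest difference. Each covers the 250 bases before the annotated gene start, on the plus strand, at chr6:4505368-4505617, chr1:45311288-45311537 and chr13:49544193-49544442 in this order. Capitals mark matches on either strand to TATAAA (the TATA box), to CCAAT (the CCAAT box), to GGGCGG (the GC box) and to TGANTCA (the AP-1 site).
Col1a2: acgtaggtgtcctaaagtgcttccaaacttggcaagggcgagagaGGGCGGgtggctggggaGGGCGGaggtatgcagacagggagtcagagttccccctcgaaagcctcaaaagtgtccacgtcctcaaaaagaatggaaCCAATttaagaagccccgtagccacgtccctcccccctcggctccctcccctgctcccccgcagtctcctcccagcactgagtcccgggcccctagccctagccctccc
Col3a1: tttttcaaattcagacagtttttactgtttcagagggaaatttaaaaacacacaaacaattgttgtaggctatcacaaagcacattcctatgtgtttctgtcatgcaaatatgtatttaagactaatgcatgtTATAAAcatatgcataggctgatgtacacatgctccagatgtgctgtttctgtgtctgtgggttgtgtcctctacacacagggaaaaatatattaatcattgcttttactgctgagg
Aspn: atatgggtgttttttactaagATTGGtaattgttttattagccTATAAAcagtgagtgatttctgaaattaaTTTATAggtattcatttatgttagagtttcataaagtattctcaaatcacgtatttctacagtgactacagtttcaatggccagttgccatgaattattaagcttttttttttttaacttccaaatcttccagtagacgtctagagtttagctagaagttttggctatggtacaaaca
Col1a2 held 1 CCAAT box, 109 bases before the start, and 2 GC boxes. Col3a1 held 1 TATA box, 117 bases before the start. Aspn held 2 TATA boxes, 1 of them on the opposite strand, and 1 CCAAT box on the opposite strand. Col1a2 and Col3a1 shared none of these motifs in this window. Of 32851 mouse promoter windows of this length, 12.4% held the TATA box letters, 33.9% those of the CCAAT box, 32.7% those of the GC box and 6.75% those of the AP-1 site, and a match is a description of letters, not of a site in use. On the chromosomes, Dcn and Lum are direct neighbours, Aspn lies between the proteoglycan genes Ecm2 and Omd, and Col3a1 lies beside the collagen gene Col5a2.

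In mutant hearts the 3 fibrillar collagen genes read higher than in controls after PBS and 30 min after LPS, without passing the test across all probe sets. Col3a1 (1427883_a_at) read 11.85, 11.54 and 11.50 on the control PBS arrays and 12.27, 12.32 and 12.15 on the mutant PBS arrays. All mutant arrays lay above all control arrays. At 30 min its control arrays read 11.55, 11.97 and 11.77 and its mutant arrays 12.10, 12.19 and 12.53, again with no overlap. The differences were 0.62 after PBS (SE 0.16, 1.54-fold, adjusted p = 0.415) and 0.51 at 30 min (SE 0.16, 1.42-fold, adjusted p = 0.802). The group means of Col3a1 ran, from the highest, mutant LPS 30 min (12.27 ± 0.23), mutant PBS (12.25 ± 0.09), mutant LPS 3 h (11.77 ± 0.26), control LPS 30 min (11.76 ± 0.21), control LPS 3 h (11.73 ± 0.24) and control PBS (11.63 ± 0.19; SD, n = 3 each). The first pair and the last 4 lay within their own spread.

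Col1a2 (1450857_a_at) followed the same order of genotypes. It read 11.17, 11.02 and 10.83 after PBS in controls and 11.43, 11.51 and 11.30 in mutants. At 30 min it read 10.87, 11.13 and 10.90 in controls and 11.15, 11.34 and 11.74 in mutants. No control array reached a mutant array at either time, although the closest pair at 30 min, 11.13 and 11.15, nearly met. The differences were 0.40 (SE 0.15, adjusted p = 0.764) and 0.45 (SE 0.15, adjusted p = 0.817). Across the 16 arrays other than mutant LPS 3 h replicates 1 and 3, Col1a2 and Col3a1 had a Pearson r of 0.94, the highest of all pairs among the 9 genes; the arrays share groups, days and normalization, so this is a description.

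Col1a1 (1423669_at), the partner of Col1a2 in type I collagen, read 8.87, 8.68 and 8.20 on the control PBS arrays and 9.24, 9.18 and 8.98 on the mutant PBS arrays. The mutant arrays lay above the controls after PBS. At 30 min the groups overlapped, with 8.13, 8.59 and 8.27 in controls and 8.68, 8.73 and 8.52 in mutants. The differences were 0.55 (SE 0.18, 1.47-fold, adjusted p = 0.617) after PBS and 0.31 (SE 0.18) at 30 min, neither past the threshold. The mean of Col1a1 was highest in mutant PBS hearts (9.13 ± 0.13, SD, n = 3), and the other 5 group means lay between 8.33 and 8.70.

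**Figure D1:**
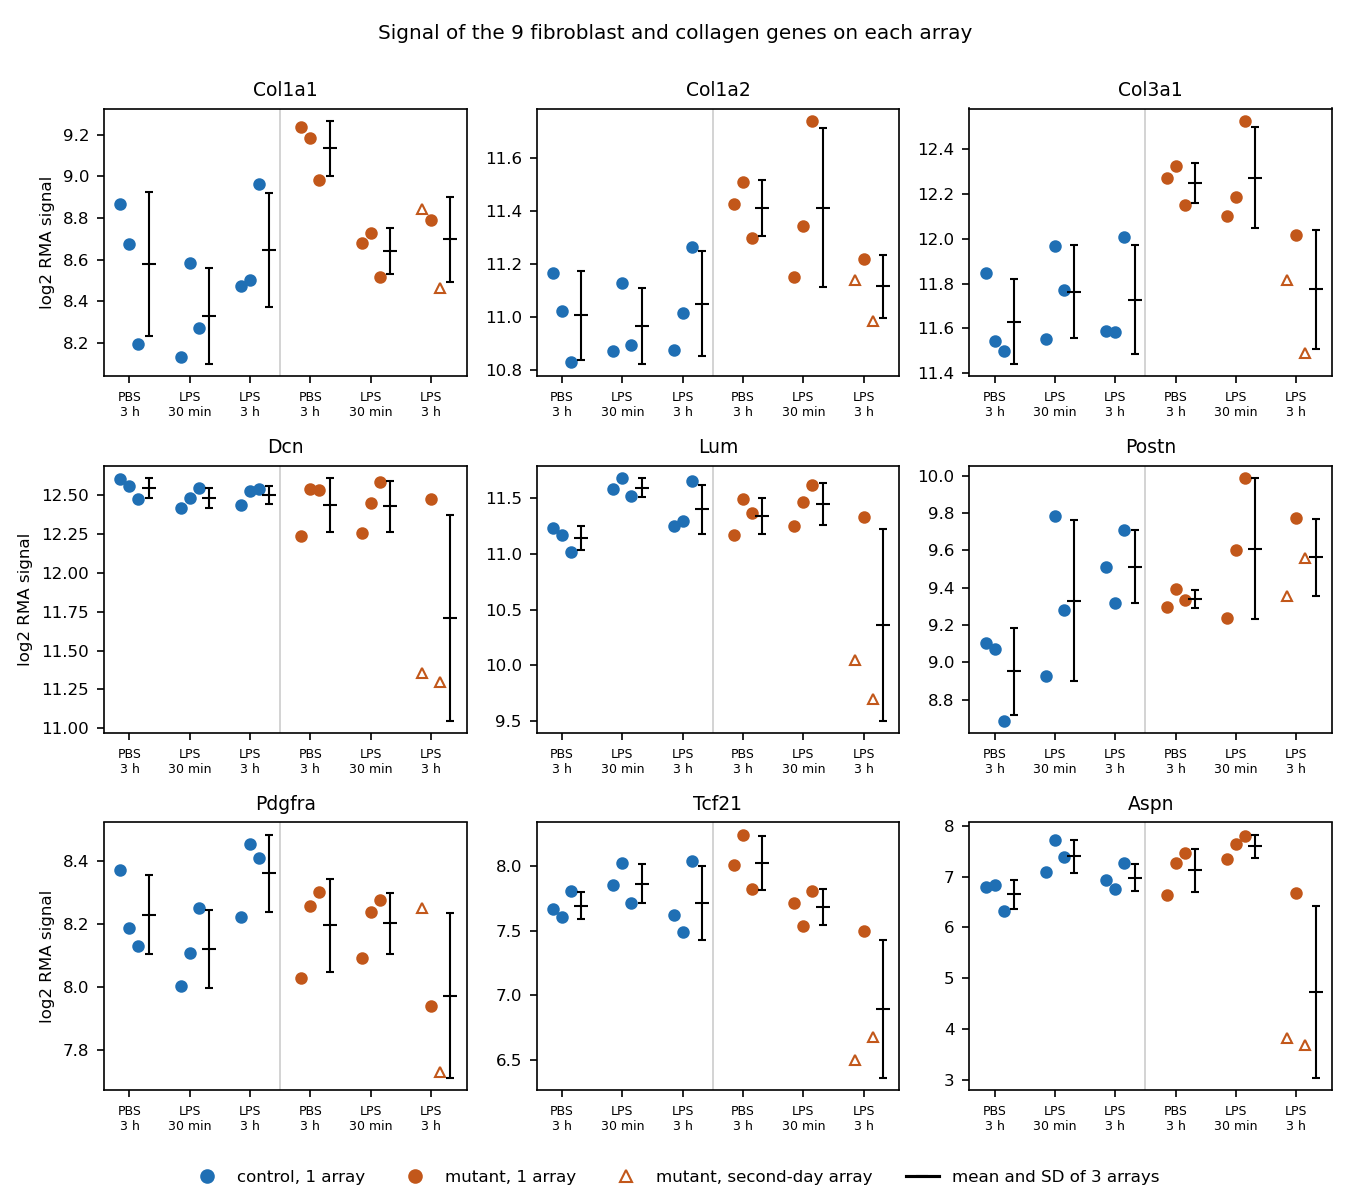
Log2 RMA signal (vertical axes, scaled per gene) of the probe set with the highest mean for each of the 9 genes, on each of the 18 arrays, in 3 control and 3 mutant groups (horizontal axes); circles are single arrays, open triangles the 2 mutant arrays of the second hybridization day, and black bars the mean and SD of 3 arrays. The mutant PBS arrays of Col3a1 (12.15 to 12.32) lie above the control PBS arrays (11.50 to 11.85), and the second-day arrays of Dcn, Lum, Tcf21 and Aspn lie far below all others.

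Averaged over PBS and LPS 30 min, the mutant minus control difference was positive for 17 of the 18 probe sets, with a median of 0.27 against -0.01 for all probe sets, and 0 of the 18 passed the limma test at an adjusted p under 0.05. At an unadjusted p under 0.05, 8 did. No share of all probe sets is given at that threshold, so this and the later unadjusted counts have no baseline. The count at an adjusted p under 0.05 was not stable over the alternatives, from 0 to 8. With only the 12 arrays of the groups compared in the fit 7 were higher in mutants, and with array weights 8. In each of these fits 3.25% of all probe sets were higher. Across all probe sets 0.155% passed for this average, and 0.00888% passed for PBS alone and 0.00888% for 30 min alone, where 0 of the 18 passed as well and 5 each time at an unadjusted p under 0.05. The average was 0.56 for Col3a1 (SE 0.12, 1.48-fold, 95% interval 0.32 to 0.81, adjusted p = 0.0609), 0.42 for Col1a2 (SE 0.10, 1.34-fold, adjusted p = 0.134) and 0.43 for Col1a1 (SE 0.12, 1.35-fold, adjusted p = 0.250). The second probe sets of these genes gave 0.74 for Col3a1 (1427884_at), 0.70 for Col1a2 (1423110_at) and 0.56 for Col1a1 (1455494_at), and a further, dim one of Col1a2 (1446326_at) gave 0.06.

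The spread in this fit includes the second-day arrays. With those 2 arrays left out, an alternative chosen after the data were seen, the averaged differences were the same and 2 probe sets passed, Col3a1 1427883_a_at (adjusted p = 0.0139) and Col1a1 1455494_at (adjusted p = 0.0451), with 1.53% of all probe sets passing. Col1a2 1450857_a_at had an adjusted p of 0.0512 in that fit. Of the 18 probe sets, 9 had all 3 mutant PBS arrays above all 3 control PBS arrays (8 after quantile normalization), against 10.6% of all probe sets, and 4 did so at 30 min, against 9.97%. In the other direction the counts were 1 and 2.

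The averaged genotype difference lay near 0 for decorin, lumican and both fibroblast genes at their brightest probe sets. The averaged genotype difference of Dcn was -0.08 (95% interval -0.41 to 0.25), that of Lum 0.02 (-0.39 to 0.44), that of Pdgfra 0.02 (-0.17 to 0.22) and that of Tcf21 0.08 (-0.24 to 0.39). These intervals pool the spread of all groups, with the second-day arrays. In mutant LPS 3 h hearts the SD was 0.66 for Dcn and 0.86 for Lum. In the other groups it was 0.06 to 0.17 for Dcn and 0.08 to 0.22 for Lum. Dcn read 12.61, 12.56 and 12.48 on the control PBS arrays and 12.24, 12.54 and 12.54 on the mutant ones, with overlap. Pdgfra (1421917_at) read 8.37, 8.19 and 8.13 against 8.03, 8.26 and 8.30. These groups also overlapped. Tcf21 (1417447_at) read 7.67, 7.60 and 7.81 against 8.01, 8.24 and 7.82 after PBS, where the groups just cleared each other, and its difference turned from 0.33 after PBS to -0.18 at 30 min, neither past the threshold. Whether the collagens differed from these genes in their genotype difference was not tested.

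Postn, the injury-associated matrix gene, read 9.10, 9.07 and 8.69 on the control PBS arrays and 9.30, 9.39 and 9.33 on the mutant ones, with the mutants above the controls. At 30 min the control arrays read 8.93, 9.78 and 9.28 and the mutant arrays 9.24, 9.60 and 9.99, which overlap. The average difference was 0.33 (SE 0.15, 1.26-fold, adjusted p = 0.669). For Aspn, the dimmer probe set 1448421_s_at gave 0.50 (SE 0.15, adjusted p = 0.303) and the brighter 1416652_at gave 0.33 (SE 0.38), each without passing.

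**Figure D2:**
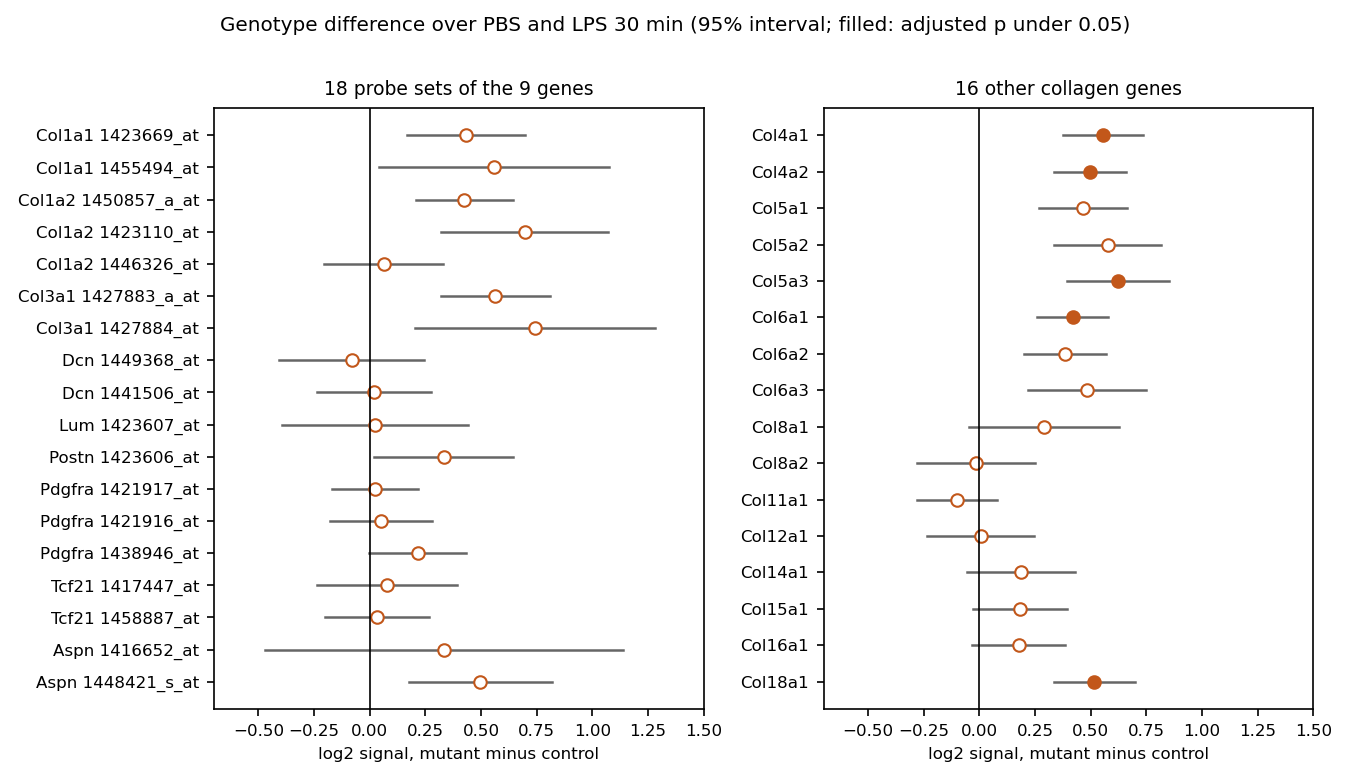
Mutant minus control log2 signal averaged over PBS and LPS 30 min (horizontal axes), for the 18 probe sets of the 9 genes (left) and for 16 other collagen genes (right); circles are estimates, lines 95% intervals of the fit over 18 arrays, and filled circles have an adjusted p under 0.05. None of the 18 is filled, with Col3a1 1427883_a_at nearest at 0.0609, and 5 of the 16 are filled.

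Some other collagen genes passed for genotype, in a list chosen with earlier results of these data known. Their count is therefore a description and no independent test. Of 16 measured, 5 were higher in mutants over PBS and LPS 30 min, 0 were lower and 11 did not pass, with a median of 0.40 against 0.01 for all genes; 0.236% of all genes passed in this direction. They were Col4a1 and Col4a2, whose chains form the main collagen of basement membranes, Col18a1, a basement membrane collagen that is the source of endostatin, Col5a3, of the fibril-forming type V collagens, and Col6a1, of the beaded filaments around cells. Col4a1 read 11.37, 11.11 and 11.16 on control PBS arrays and 11.75, 11.73 and 11.76 on mutant PBS arrays, and at 30 min 11.08, 11.58 and 11.35 against 11.78, 11.94 and 12.02. Every mutant array of these groups was above every control array. The averaged difference was 0.55 (SE 0.08, 1.47-fold, adjusted p = 0.0159).

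Col4a2, which shares a promoter region with Col4a1, read 10.80, 10.73 and 10.81 in controls after PBS and 11.16, 11.18 and 11.20 in mutants. Its averaged difference was 0.50 (SE 0.08, 1.41-fold, adjusted p = 0.0159). Col18a1 read 6.96, 6.81 and 6.98 against 7.22, 7.33 and 7.21, and its difference was 0.52 (SE 0.09, 1.43-fold, adjusted p = 0.0254). The groups did not overlap for either gene. Col5a3 differed by 0.62 (1.54-fold, adjusted p = 0.0296) and Col6a1 by 0.42 (1.34-fold, adjusted p = 0.0380). The count of 5 was not stable: it was 9 without the second-day arrays, where 1.92% of all genes passed, 2 after quantile normalization, and 0 to 6 when 1 array was left out, with 0 without control PBS replicate 2, mutant PBS replicate 1, control LPS 30 min replicate 3 or mutant LPS 30 min replicate 2 or 3. It was 1 without control PBS replicate 3, control LPS 30 min replicate 1 or mutant LPS 30 min replicate 1, and 2 without control PBS replicate 1 or mutant PBS replicate 2 or 3.

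For 9 of the 16 other collagens all mutant PBS arrays lay above all control PBS arrays, and for 9 this held at 30 min. Over all probe sets, not reduced to 1 per gene, the shares were 10.6% and 9.97%. All 10 measured endothelial markers had a positive averaged difference with a median of 0.27, 0 passed, and the nearest were Tie1 (0.60, adjusted p = 0.0516) and Cdh5 (0.57, adjusted p = 0.137). The mean level of the list was 8.75 to 8.80 on control PBS arrays and 9.11 to 9.14 on mutant PBS arrays, and 8.87 to 9.04 against 9.14 to 9.39 at 30 min. The genotypes did not overlap at either time. Epicardial (mesothelial) markers were positive in 6 of 6, with list levels of 6.25 to 6.55 in control and 6.61 to 6.91 in mutant PBS hearts, which did not overlap, and of 5.79 to 6.31 and 5.95 to 6.75 at 30 min, which did. Smooth muscle and pericyte markers were positive in 7 of 9, at 8.61 to 8.66 and 8.64 to 8.84 after PBS and 8.61 to 8.64 and 8.72 to 9.02 at 30 min. Cardiomyocyte markers were positive in 1 of 10, at 13.54 to 13.56 and 13.46 to 13.55 after PBS and 13.55 to 13.59 and 13.50 to 13.55 at 30 min. For both lists the genotypes overlapped after PBS and not at 30 min. None of the macrophage, fat cell, Schwann cell, lung epithelial or atrial markers passed, with list medians of 0.04, -0.14, -0.09, -0.03 and -0.02. The part of these markers in the collagen differences was not tested.

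**Figure D3:**
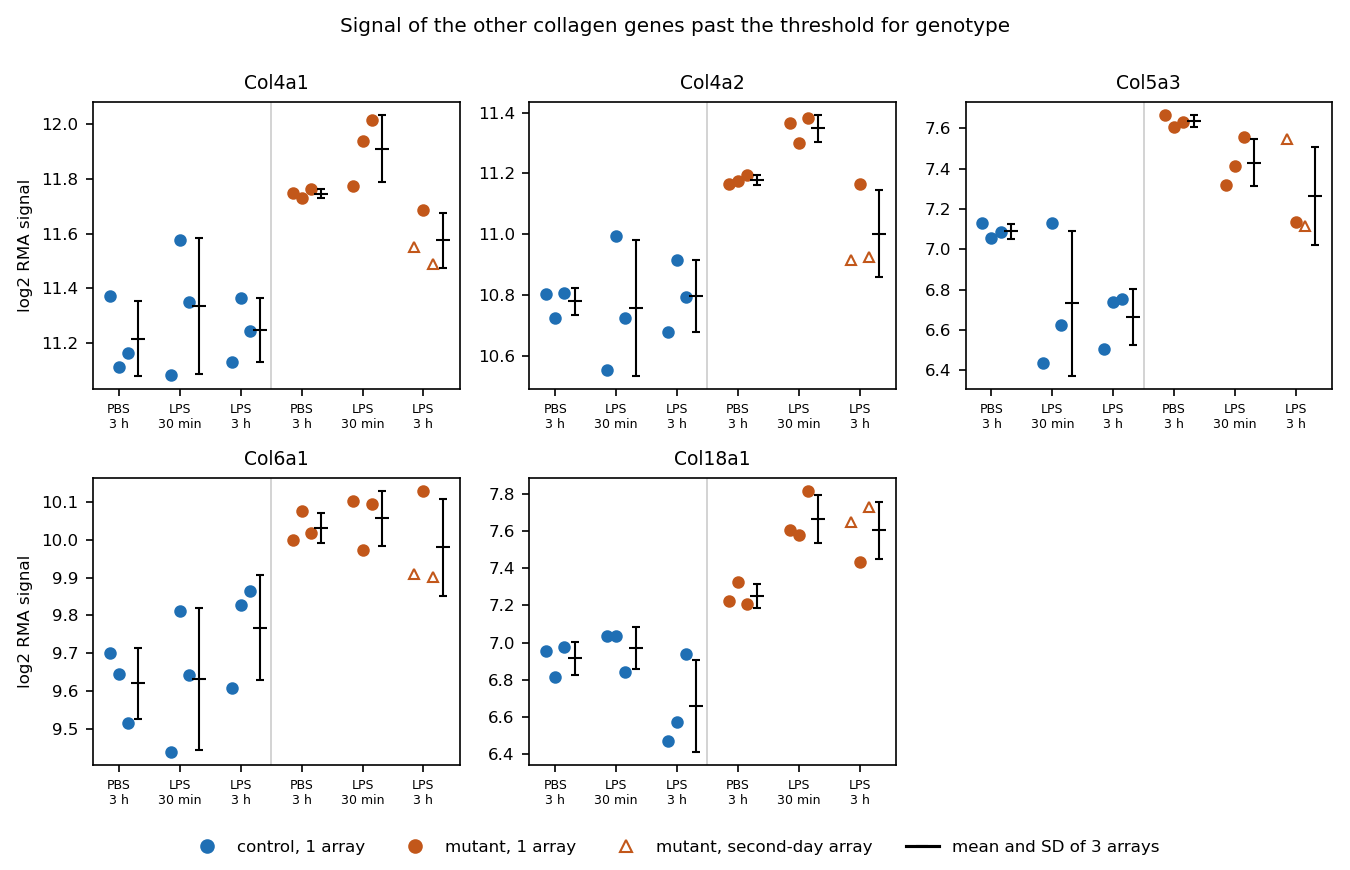
Log2 RMA signal (vertical axes, scaled per gene) of the 5 other collagen genes with an adjusted p under 0.05 for genotype over PBS and LPS 30 min, on each array by group (horizontal axes); circles are arrays, open triangles the second-day arrays, and black bars the mean and SD of 3 arrays. For Col4a1 the mutant PBS arrays lie at 11.73 to 11.76 and the control PBS arrays at 11.11 to 11.37.

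Genes with neighbouring roles mostly did not pass in this average. Among 12 matrix proteases and inhibitors, Fap, a protease of activated fibroblasts, was higher in mutants (0.54, SE 0.08, 1.45-fold, adjusted p = 0.0195) and the other 11 did not pass. Of 17 other fibroblast genes 0 passed and 16 were positive, the nearest being Thy1 (0.77, adjusted p = 0.0939) and Lamc1 (0.37, adjusted p = 0.132). Of 16 elastic fibre and matricellular genes 0 passed, the nearest being Sparc, a collagen-binding protein (0.47, adjusted p = 0.0532), and Emilin1 (0.34, adjusted p = 0.271). Of 18 genes for collagen folding and crosslinking 0 passed, among them Loxl1 (0.23) and Pcolce (0.39), which enhances procollagen processing. None of 10 other leucine-rich proteoglycans passed, with Prelp at 0.30 and Ogn at -0.13. None of 14 TGF-beta ligands, receptors and Smads passed, with Skil at 0.23 and Smad3 at 0.11, and none of 5 PDGF ligands and partner receptor, with Pdgfrb at 0.61 (adjusted p = 0.401) and Pdgfc at 0.20. In the fit of 7 means, which sets mutant LPS 3 h replicate 2 apart from replicates 1 and 3, 1.21% of all genes were higher in mutants, and the counts past the threshold were 3 of 17 other fibroblast genes, 1 of 16 elastic fibre genes, 1 of 5 PDGF genes and 3 of 10 endothelial markers, among them Thy1 (adjusted p = 0.00531), Sparc (0.0193), Pdgfrb (0.0436), Tie1 (0.0253) and Cdh5 (0.0372).

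In control hearts, 0 of the 18 probe sets passed the limma test for LPS, at 30 min or at 3 h. Across all probe sets 0.500% passed at 3 h and 0.142% at 30 min; at an unadjusted p under 0.05 the counts among the 18 were 3 and 1. Postn had the largest difference among the brightest probe sets at 3 h, 0.56 (SE 0.21, 1.47-fold, adjusted p = 0.324), with 9.51, 9.32 and 9.71 after LPS against 9.10, 9.07 and 8.69 after PBS. All LPS arrays lay above all PBS arrays. This held for 4 of the 18 probe sets (Postn, Lum, Dcn 1441506_at and Pdgfra 1421916_at), against 8.23% of all. Dcn 1441506_at, a dim probe set, read 5.90, 6.02 and 5.69 after LPS against 5.41, 5.39 and 5.35 (difference 0.48, adjusted p = 0.290, and 0.0202 without the second-day arrays). The bright Dcn probe set 1449368_at differed by -0.05 and its groups overlapped.

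At their brightest probe sets the fibrillar collagens differed little between LPS and PBS in control hearts. The 3 h difference was 0.07 for Col1a1, 0.04 for Col1a2 and 0.10 for Col3a1, each smaller than its SE of 0.15 to 0.18. Col3a1 1427884_at had a lower mean 3 h after LPS (6.81) than after PBS (7.16), with overlap. Means were 7.48 and 7.35 for Col1a1 1455494_at, 8.59 and 8.48 for Col1a2 1423110_at, and 3.64 and 3.50 for Col1a2 1446326_at. Of the 16 other collagens 0 passed, the nearest being Col5a3 (-0.43, adjusted p = 0.300) and Col5a1 (0.37, adjusted p = 0.302). At 30 min the largest differences among the brightest probe sets were those of Aspn (0.75, SE 0.53, adjusted p = 0.807) and Lum (0.45, SE 0.28, adjusted p = 0.758). For Aspn the LPS arrays read 7.08, 7.72 and 7.39 against 6.79, 6.83 and 6.32 after PBS, without overlap. Its SE pools the spread of all groups. The SD of Aspn was 1.69 in mutant LPS 3 h hearts, against 0.32 and 0.29 in the groups compared. For Lum the LPS arrays read 11.58, 11.68 and 11.52 against 11.23, 11.17 and 11.02 after PBS, also without overlap. The LPS arrays of both genes were of another hybridization day. Among the gene and marker lists at 3 h, only Mrc1, a macrophage receptor, passed in controls with all 18 arrays in the fit (0.79, adjusted p = 0.00447). In mutant hearts at 30 min 0 of the 18 passed (3 at an unadjusted p under 0.05), and 0.0488% of all probe sets did.

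At 3 h after LPS, 5 of the 18 probe sets were lower in mutant hearts than after PBS, and 0 were higher, when the 3 arrays were taken as 1 group. Across all probe sets 13.1% were lower and 7.99% higher. The 5 were Aspn (-2.39, SE 0.53, adjusted p = 0.00817), Tcf21 (-1.13, SE 0.21, adjusted p = 0.00319), Lum (-0.98, SE 0.28, adjusted p = 0.0229), Dcn (-0.73, SE 0.22, adjusted p = 0.0277) and Col3a1 (-0.47, SE 0.16, adjusted p = 0.0493). Against control LPS 3 h hearts 5 were lower, Aspn, Tcf21, Lum, Dcn and Pdgfra, and 1 higher, Col1a1 1455494_at (1.28, adjusted p = 0.0210), with 10.5% of all probe sets lower and 7.97% higher. Pdgfra read 8.22, 8.45 and 8.41 in controls and 8.25, 7.94 and 7.73 in mutants, which overlap (-0.39, adjusted p = 0.0461, but -0.18 with adjusted p = 0.385 after quantile normalization). The 5 lower calls against PBS became 2 without mutant LPS 3 h replicate 3 or mutant PBS replicate 2 or 3, and the 5 against controls became 0 without mutant replicate 3, 1 without control replicate 3, and 2 without mutant or control replicate 1. The change with LPS did not differ between genotypes past the threshold for any of the 18 (smallest adjusted p = 0.0933), and 0.104% of all probe sets passed. At an unadjusted p under 0.05, 5 of the 18 differed. The mutant change minus the control change was negative for all 9 genes at their brightest probe set. With mutant replicate 2 alone, this difference was 0.08 for Dcn.

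Most of these calls rested on the second-day arrays. Aspn (1416652_at) read 6.64, 7.26 and 7.46 in mutant hearts after PBS, and 3 h after LPS it read 6.68 in replicate 2 but 3.82 and 3.69 in replicates 1 and 3. Replicate 2 lay within the PBS arrays, and the other pair lay lower than every other array of the study, whose lowest was 6.32. Split this way, the change was -0.44 (SE 0.31, adjusted p = 0.455) for replicate 2 and -3.37 (SE 0.24, adjusted p = 3.66e-08) for replicates 1 and 3. These 2 signals lay below the middle probe set of the array, 4.85, and no detection calls were used here, so no fold is given.

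Lum read 10.04 and 9.70 in replicates 1 and 3 and 11.33 in replicate 2, against 11.17, 11.49 and 11.36 after PBS. Its change was -1.47 (SE 0.15, 2.77-fold lower) on the second day and -0.01 (SE 0.19) in replicate 2. Dcn (1449368_at) read 11.36 and 11.30 against 12.47 in replicate 2 and 12.24, 12.54 and 12.54 after PBS. Its change was -1.11 (SE 0.11, 2.16-fold lower) on the second day and 0.04 (SE 0.14) in replicate 2. For both genes replicate 2 lay within the PBS arrays.

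Tcf21 (1417447_at) read 6.50 and 6.68 in replicates 1 and 3 and 7.50 in replicate 2, against 8.01, 8.24 and 7.82 after PBS. All LPS 3 h arrays lay below the PBS arrays. Its change was -1.44 (SE 0.16, 2.71-fold lower, adjusted p = 3.56e-06) on the second day and -0.53 (SE 0.20, adjusted p = 0.148) in replicate 2. Col3a1 read 11.82 and 11.49 in replicates 1 and 3 and 12.01 in replicate 2, against 12.27, 12.32 and 12.15. It was also below the PBS arrays on every array, with changes of -0.60 (SE 0.17, adjusted p = 0.0136) and -0.23 (SE 0.22, adjusted p = 0.594).

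With replicate 2 alone, in the fit of 7 means, 0 of the 18 probe sets passed against mutant PBS, 2 at an unadjusted p under 0.05, and 4.68% of all probe sets passed. With replicates 1 and 3, 2 were higher and 5 lower, and 32.8% of all passed. Against control LPS 3 h, replicate 2 had 0 higher and 1 lower, Dcn 1441506_at (5.17 against 5.69 to 6.02, difference -0.70, adjusted p = 0.0368), with 0.380% of all probe sets lower. The SE of replicate 2 alone assumes that it varies like the other groups. Hybridization day, array lot and RNA quality signal moved together on these arrays, and their part in the differences was not tested. Replicate 2 carried the highest Scgb1a1 (9.90) and Adipoq (9.92) signals of all arrays. The part of other tissue in its values was not tested either.

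Probe sets of the same gene disagreed on the second-day arrays. Col1a1 1455494_at read 9.55 and 9.11 there against 7.61 in replicate 2 and 7.72 to 7.97 after PBS, while Col1a1 1423669_at read 8.84 and 8.47 against 8.79 and 8.98 to 9.24. The first changed by 1.44 and the second by -0.48 from PBS to the second-day LPS arrays. Dcn 1441506_at changed by 0.72 where Dcn 1449368_at changed by -1.11. Aspn 1448421_s_at changed by -0.13 where Aspn 1416652_at changed by -3.37. In replicate 2 the same pairs differed less, with -0.27 and -0.35 for Col1a1, -0.07 and 0.04 for Dcn, and -0.31 and -0.44 for Aspn. Where in the transcripts these probe sets lie was not analysed here.

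**Figure D4:**
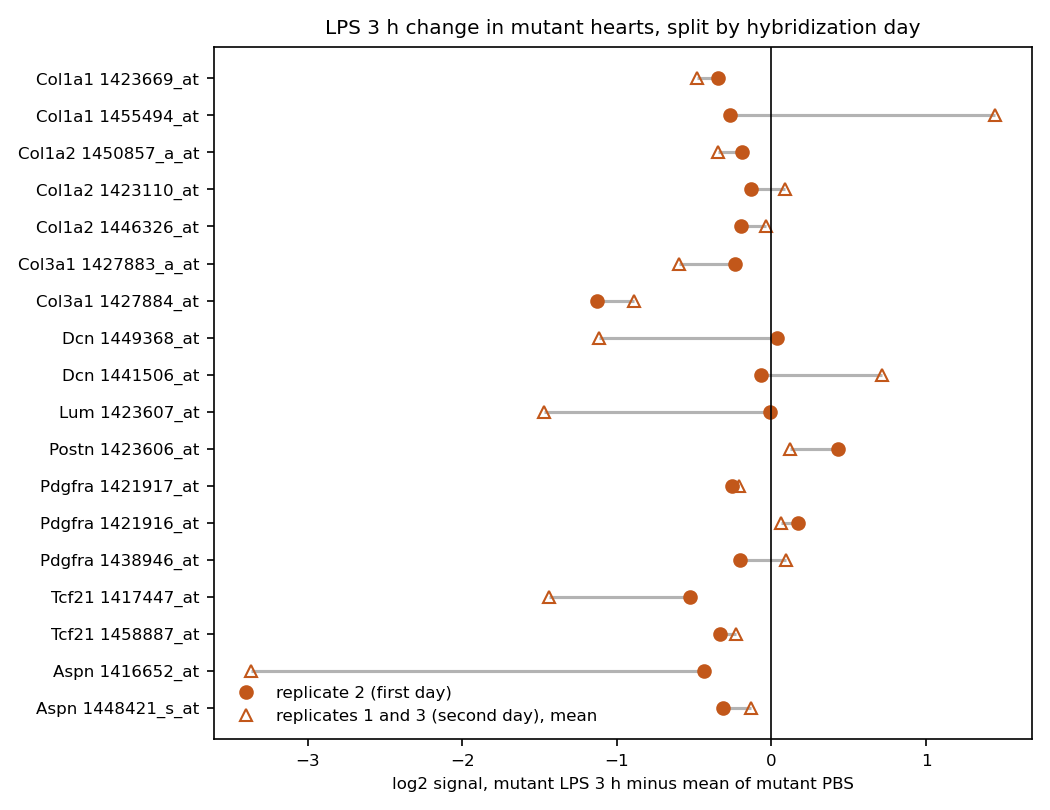
Change in log2 signal from the mean of mutant PBS hearts to mutant hearts 3 h after LPS (horizontal axis) for each of the 18 probe sets (vertical axis); filled circles are replicate 2, hybridized on the first day, open triangles the mean of replicates 1 and 3, hybridized on the second day, and grey lines join the pair. The pairs lie far apart for Aspn 1416652_at (-0.44 and -3.37), Lum, Dcn 1449368_at, Tcf21 1417447_at and Col1a1 1455494_at, and Postn lies to the right of 0 for both.

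Counts for other genes of the matrix are given with all 3 mutant LPS 3 h arrays and with replicate 2 alone. Across all genes 9.90% were higher and 16.1% lower with all arrays, and 2.57% lower with replicate 2 alone. Of 18 collagen folding and crosslinking genes 1 was higher and 7 lower in mutant hearts 3 h after LPS, among them Mia3, which exports procollagen from the endoplasmic reticulum (-0.61), the prolyl hydroxylase genes P4ha1 (-1.10) and P4ha2 (-0.53), and Serpinh1, the collagen chaperone HSP47 (-0.80). With replicate 2 alone in the fit of 7 means 0 passed, and P4ha1 then differed by -0.15 and Serpinh1 by -0.14. Of 14 TGF-beta pathway genes 6 were lower, led by Smad2 (-1.14) and Smad6 (-1.13), and 0 passed with replicate 2 alone, at -0.55 and -0.77. Of 17 other fibroblast genes 3 were higher and 4 lower, and with replicate 2 alone 0 and 3. Tbx18, an epicardial transcription factor, was lower both with all arrays (-0.98, adjusted p = 0.00514) and with replicate 2 alone (-1.48, adjusted p = 0.00238). Vim fell by 1.49 with all arrays (adjusted p = 0.0180) and differed by 0.03 in replicate 2. Of 16 elastic fibre and matricellular genes 2 were higher and 3 lower, of 10 leucine-rich proteoglycans 0 passed, and of 5 PDGF genes Pdgfb was lower (-0.98, adjusted p = 0.0100), with 0 in each list with replicate 2 alone. Of 10 endothelial markers 6 were lower with all arrays and 0 with replicate 2 alone, at list levels of 8.15 to 8.40 on replicates 1 and 3 and 8.89 on replicate 2.

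Of the 16 other collagens, Col16a1 (0.63, adjusted p = 0.00767) and Col15a1 (0.47, adjusted p = 0.0283) were higher 3 h after LPS in mutants and 0 were lower. Replicate 2 alone gave 0.69 and 0.33, neither past the threshold in the fit of 7 means, while Col16a1 passed in the fit on 16 arrays without the second-day pair (adjusted p = 0.0256). Between genotypes at 3 h, 5 of 16 were higher and 0 lower, against 9.75% of all genes higher. Fewer were higher with replicate 2 alone, where Col16a1 differed by 0.81. With all arrays Col18a1 differed by 0.94 (adjusted p = 0.00108), where the mutant arrays read 7.65, 7.43 and 7.73 and the control arrays 6.47, 6.57 and 6.94. No arrays overlapped. Without the second-day arrays Col18a1 differed by 0.77 (adjusted p = 0.0146). Timp1, an inhibitor of matrix proteases, rose by 1.38 in mutants (adjusted p = 0.00203, and 1.02 with adjusted p = 0.0698 in replicate 2 alone) and differed by 1.06 in controls (adjusted p = 0.0578).

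Over the 16 arrays other than the second-day pair, the genes most like the mean of the 9 genes, among 11794 genes at or above the median signal, were Mfap4, a microfibril-associated protein (Pearson r = 0.86), Mmp2, a gelatinase (0.83), Sparc (0.82), the chloride channel gene Clic1 (0.81) and Col5a2 (0.81), the chromosomal neighbour of Col3a1. Group means of Mfap4 were 8.30 and 8.81 after PBS in control and mutant hearts, and those of Col5a2 were 8.78 and 9.20. Among the 9 genes themselves, r was 0.79 for Lum and Aspn, 0.67 for Col1a1 and Col1a2, 0.64 for Col1a1 and Col3a1, 0.62 for Dcn and Pdgfra, 0.30 for the neighbouring genes Dcn and Lum, and -0.10 for Dcn and Col3a1. The arrays share groups and normalization, so these values describe these 16 arrays.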

How the data were processed

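The authors deposited log2 signals made with RMA per the submitters' processing notes (a background-corrected, between-array normalized summary per probe set), with no version or settings stated. Array medians ran from 4.71 to 4.97. RMA understates differences of dim probe sets, and the number of arrays limits precision. Hybridization day and array lot came from text fields of the deposited experiment files. All control PBS arrays were of the same lot, which no LPS array shared. Lot and LPS therefore cannot be told apart in controls. Mutant PBS replicate 3 was of that lot too, and mutant PBS replicates 1 and 2 were of another.

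Of 45101 probe sets, 64 controls were left out. The platform annotation gave 1 symbol for 34945 probe sets, several for 932 and none for 9160. A gene's level was its probe set with the highest mean. limma 3.58.1 in R 4.3.3 fitted 6 group means to 18 arrays (12 residual and 3.83 prior degrees of freedom), with 10 contrasts. From 8 gene lists and 9 marker lists, at most 4 called genes were named, or, where no gene was called, the 2 lowest in p; genes named beyond this rule were chosen after their values were seen. The members and lists were chosen with earlier results of these data known. A fit of 7 means separated mutant LPS 3 h replicate 2 from replicates 1 and 3. The fits were tested on simulated data. No array was a copy of another. Same-numbered arrays mostly did not deviate together, so the numbers were not used as pairs. Of 45 pairs, 10 had a correlation over 0.1 and 3 under -0.1, with a median of 0.016 and a range from -0.32 to 0.36. Other settings are described at the end.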

Additional observations from a re-analysis of the deposited data

How the results depend on the processing

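Counts of the 18 probe sets past the threshold differed between settings. Where no share of all probe sets is given for a setting, the counts describe that setting and have no baseline. For the genotype difference over PBS and LPS 30 min, 3.25% of all probe sets were higher with only the groups compared, and 3.25% with array weights. With only the groups compared in the fit, the genotype difference over PBS and LPS 30 min had 7 higher, with array weights 8, without the second-day arrays 2, and with the brighter probe sets only, 1 probe set per gene, or hybridization day as a block 1 (0 as reported); no array left out singly changed it from 0. The genotype difference after PBS then had 2 higher (only the groups compared) or 1 (array weights), and that at 30 min 2 (array weights). LPS 30 min gave 2 higher and 1 lower in controls and 1 lower in mutants, with only the groups compared and with array weights alike. The shares of all probe sets for LPS 30 min are not given for these fits. LPS 3 h in controls gave 1 higher with the day block or without the second-day arrays.

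At 3 h in mutants, the 5 lower calls against PBS became 0 with only the groups compared, the day block, first-day arrays only, replicate 2 alone, or without the second-day arrays. They ranged from 2 to 5 when 1 array was left out, with 2 without mutant LPS 3 h replicate 3 or mutant PBS replicate 2 or 3; the 0 higher became 2 without replicate 2, with replicates 1 and 3 as the group, or with array weights, and ranged from 0 to 2. The 5 lower calls against controls became 0 with only the groups compared or first-day arrays only and 1 with the day block, replicate 2 alone or without the second-day arrays, and ranged from 0 to 4 with 1 array left out: 0 without mutant replicate 3, 2 without mutant replicate 1 or control replicate 1, and 1 without control replicate 3. The 1 higher call became 0 in all of those 5 settings and with 1 probe set per gene, and ranged from 0 to 1, with 0 without mutant replicate 1 or 3 or control replicate 1. The difference of LPS 3 h effects had 1 higher and 5 lower with replicates 1 and 3 as the group, and 4 lower with array weights. With 1 array left out its counts ranged from 0 to 1 and 0 to 5, the higher values being without mutant LPS 3 h replicate 2. The share of all probe sets is not given for this comparison in these settings. For LPS 3 h in mutants, 32.8% of all probe sets passed with replicates 1 and 3. Dcn 1449368_at changed sign, from -0.73 to 0.036, with the day block, first-day arrays only, replicate 2 alone and without the second-day arrays. Quantile normalization moved Pdgfra at 3 h from -0.39 to -0.18 (adjusted p = 0.385).

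The 5 other collagens higher in mutants became 2 after quantile normalization, 3 with the replicate block, and 9 with only the groups compared, the day block, array weights or without the second-day arrays; leaving out 1 array gave 0 to 6. The replicate block, a term for the replicate number, left 4 of the 5 lower calls in each 3 h comparison and ended those of Col3a1 against PBS (adjusted p = 0.0637) and Pdgfra against controls (adjusted p = 0.0628); the other counts of the 18 did not change with it. The cause was not tested, beyond the arrays that a setting leaves out. Day terms for the LPS 30 min changes, and single-day fits for the averaged genotype difference and the difference of LPS 30 min effects, were not run because day and group cannot be told apart there. The fit without the second-day arrays, and all alternatives for the other collagens, were chosen after seeing the data. Without those arrays the calls among all probe sets were 95 after PBS (4 with all arrays), 127 at 30 min (4), 691 for their average (70), 1896 for genotype at 3 h (8309), 1481 and 4880 for LPS 3 h in controls and mutants (225 and 9522), 1175 and 581 for LPS 30 min (64 and 22) and 535 for the difference of LPS 3 h effects (47).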
